A study of Mus musculus with 16 samples.

Results

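Imprinted genes are read mainly from the copy inherited from one parent, and many of them set how much a fetus and its tissues grow. As a broad rule, genes read from the paternal copy, such as the growth factor gene Igf2, promote growth, and genes read from the maternal copy, such as H19, Cdkn1c and Grb10, restrain it. Several are strongly expressed in fetal muscle, are turned down after birth, and return in part when muscle regenerates.

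The 10 genes described here are H19, Igf2, Meg3, Rian, Mirg, Cdkn1c, Peg3, Plagl1, Grb10 and Nnat, taken by their symbols from the 45706 genes of the deposited table. All 10 passed the filter on low counts, as 10 of the 13792 genes tested. They were measured in 8 quadriceps libraries of mice whose Nampt was knocked out specifically in skeletal muscle (KO) and 8 of wild-type mice (WT). NAMPT makes nicotinamide mononucleotide in the salvage route to NAD. The labels name no promoter or Cre driver for the knockout, and no age, sex or litter. Nothing in them says that the samples came from separate animals, so each p-value covers only how much these libraries vary, which may be technical.

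The libraries were made from polyadenylated RNA and read as pairs of 52 bp, and they held 16065394 to 51881258 estimated counts. Levels are in CPM, counts scaled to a common library size. Summed over 10 muscle fibre markers, KO libraries held 147619 to 175410 CPM and WT libraries 147319 to 182739 CPM. Nampt averaged 73.4 ± 9.3 CPM in KO and 141 ± 12.0 CPM in WT (SD, n = 8 each), a log2 fold change of -0.95 (SE 0.07, edgeR quasi-likelihood test, Benjamini-Hochberg adjusted p = 9.68e-07), and the genotypes did not overlap. Nampt read in other cells of the muscle and Nampt read in knockout fibres cannot be told apart in these whole-muscle samples, and the same holds for fewer cells of a type against less RNA per cell for every gene below. The counts do not separate the parental copies, so imprinting itself was not measured. Libraries KO 4 and WT 4 stood apart from the rest for Igf2, and results that rest on them are given with and without them. The labels give both the number 4 and do not say what a shared number marks.

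H19 is a long noncoding RNA of chromosome 7 (142575529 to 142578143, minus strand, 3 exon blocks; GRCm38, GENCODE vM21). Igf2, the gene of insulin-like growth factor 2, lies beside it on the same strand (142650766 to 142666816, 8 exon blocks), and both are driven by shared enhancers under an imprinting control region that CTCF binds. Meg3 (chromosome 12, 109541001 to 109571726), Rian (109603940 to 109661716) and Mirg (109729764 to 109749460) are noncoding RNAs read one after the other on the plus strand from the maternal copy of the Dlk1-Dio3 cluster. These 5 genes are hosts of microRNAs. The RefSeq table of GRCm38.p6 places 39 mature microRNAs inside them, with 2 in H19, 2 in Igf2, 3 in Meg3, 6 in Rian and 26 in Mirg, and 0 in the other members.

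The following sequences are shown because they are the small RNAs that the host transcripts of the results give rise to. Each is written 5′ to 3′ with its seed, bases 2 to 8, in capitals. The first pair comes from an exon of H19, the next pair from an intron of Igf2, and the pairs after that from Meg3 and Rian. The last pair lies in Mirg and carries the 1 seed that occurs more than once among the 39.
miR-675-5p: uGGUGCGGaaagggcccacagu
miR-675-3p: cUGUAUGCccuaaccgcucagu
miR-483-5p: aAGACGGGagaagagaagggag
miR-483-3p: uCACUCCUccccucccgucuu
miR-770-5p: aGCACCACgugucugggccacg
miR-770-3p: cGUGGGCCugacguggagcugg
miR-370-5p: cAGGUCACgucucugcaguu
miR-370-3p: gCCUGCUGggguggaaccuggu
miR-453: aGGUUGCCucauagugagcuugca
miR-496a-5p: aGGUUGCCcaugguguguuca
The deposited table has 24 rows for genes annotated as microRNAs inside the members, on either strand, and all 24 are at 0 in every library. The values below are therefore those of the host transcripts, and mature microRNAs were not measured.

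Promoters of 250 bases before to 50 bases after the start site were available for 8 of the 10 members, 13 promoters in all, from the same RefSeq table. Of the promoters of all genes, 1.79% of 32851 hold the palindrome TGACGTCA, 13.62% hold TATAAA, 35.66% hold GGGCGG and 16.3% hold CAGCTG, each searched on both strands. These letters were chosen after the sequences had been seen, and a match is no evidence of a factor at the site. TGACGTCA occurred in the promoters of Meg3 and Peg3, where it starts at -57 and -178 from the start site, TATAAA in that of Meg3, and GGGCGG in those of Igf2, Plagl1 and Grb10. CAGCTG occurred in 0 of the 13. The promoters of Meg3 (chr12:109540746-109541045, plus strand) and Peg3 (chr7:6730370-6730669, minus strand) are shown for the 8 letters they share, and a promoter of Igf2 (chr7:142657447-142657746, minus strand) because KO 4 and WT 4 stood apart in Igf2. Another Igf2 promoter, not shown, holds GGGCGG at -17. Which Igf2 promoter is read in KO 4 and WT 4 was not tested. Capitals mark the matches in the sequences shown, and the run of 10 capitals in Meg3 is made of overlapping matches to TATAAA on both strands.
Meg3: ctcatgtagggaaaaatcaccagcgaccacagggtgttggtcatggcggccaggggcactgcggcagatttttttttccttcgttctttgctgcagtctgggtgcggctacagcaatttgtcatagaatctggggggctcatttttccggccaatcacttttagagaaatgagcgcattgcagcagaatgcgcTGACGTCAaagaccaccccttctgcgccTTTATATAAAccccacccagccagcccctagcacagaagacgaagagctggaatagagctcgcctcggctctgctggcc
Peg3: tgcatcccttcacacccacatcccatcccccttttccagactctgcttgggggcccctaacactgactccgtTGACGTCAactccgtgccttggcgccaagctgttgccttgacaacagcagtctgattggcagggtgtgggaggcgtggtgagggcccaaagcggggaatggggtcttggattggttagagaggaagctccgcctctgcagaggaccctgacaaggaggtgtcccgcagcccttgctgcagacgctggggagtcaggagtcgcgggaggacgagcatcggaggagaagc
Igf2: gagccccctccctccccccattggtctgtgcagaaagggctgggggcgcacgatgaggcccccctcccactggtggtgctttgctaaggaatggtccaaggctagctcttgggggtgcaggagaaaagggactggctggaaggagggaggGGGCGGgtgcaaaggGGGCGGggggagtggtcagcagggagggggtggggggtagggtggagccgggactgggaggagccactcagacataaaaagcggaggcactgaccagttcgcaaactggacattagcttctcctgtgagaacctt

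Per kb of annotated exon, H19 stood far above the other members. Its mean over the 16 libraries was 236 CPM per kb, against 6.47 for Cdkn1c and 4.65 for Igf2. H19 and Cdkn1c did not overlap. Grb10 followed at 4.34, Peg3 at 1.85, Nnat at 1.11 and Meg3 at 1.03 CPM per kb. Neighbours in this order overlapped in range from Cdkn1c down to Meg3, although Grb10 was above Peg3 in each of the 16 libraries. Rian at 0.406, Plagl1 at 0.194 and Mirg at 0.0586 CPM per kb came last, and the ranges of Meg3 and Rian, and of Plagl1 and Mirg, did not overlap.

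None of the 10 genes differed between KO and WT past the threshold. At an adjusted p under 0.05, edgeR called 0 of 10 members, where 0.0435% of all tested genes were called. At an unadjusted p under 0.05, H19 was among those higher in KO (4.02% of all tested genes) and Cdkn1c among those lower (5.55%), so 2 of 10 members passed, against 9.57% of all tested genes in either direction. DESeq2 and limma-voom also called 0, with the same pair at an unadjusted p under 0.05. That count depends on single libraries: leaving out 1 at a time it ran from 0 (without WT 3) to 3 of 10 (without WT 7). DESeq2 gave no adjusted p for Mirg, Nnat and Plagl1. The log2 fold change was above 0 for 7 of 10 members and for 51.8% of all tested genes, and its median was 0.13 for the members and 0.00 for all tested genes. The median of the members was 0.04 without KO 4 and 0.06 without both KO 4 and WT 4. For Meg3, Rian, Cdkn1c, Peg3, Plagl1 and Grb10 the 95% interval stayed within 1.5-fold up or down, whereas those of H19, Igf2, Mirg and Nnat reached beyond it. Thus 6 of 10 members had an interval inside that bound, as did 86.2% of all tested genes.

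**Figure D1:**
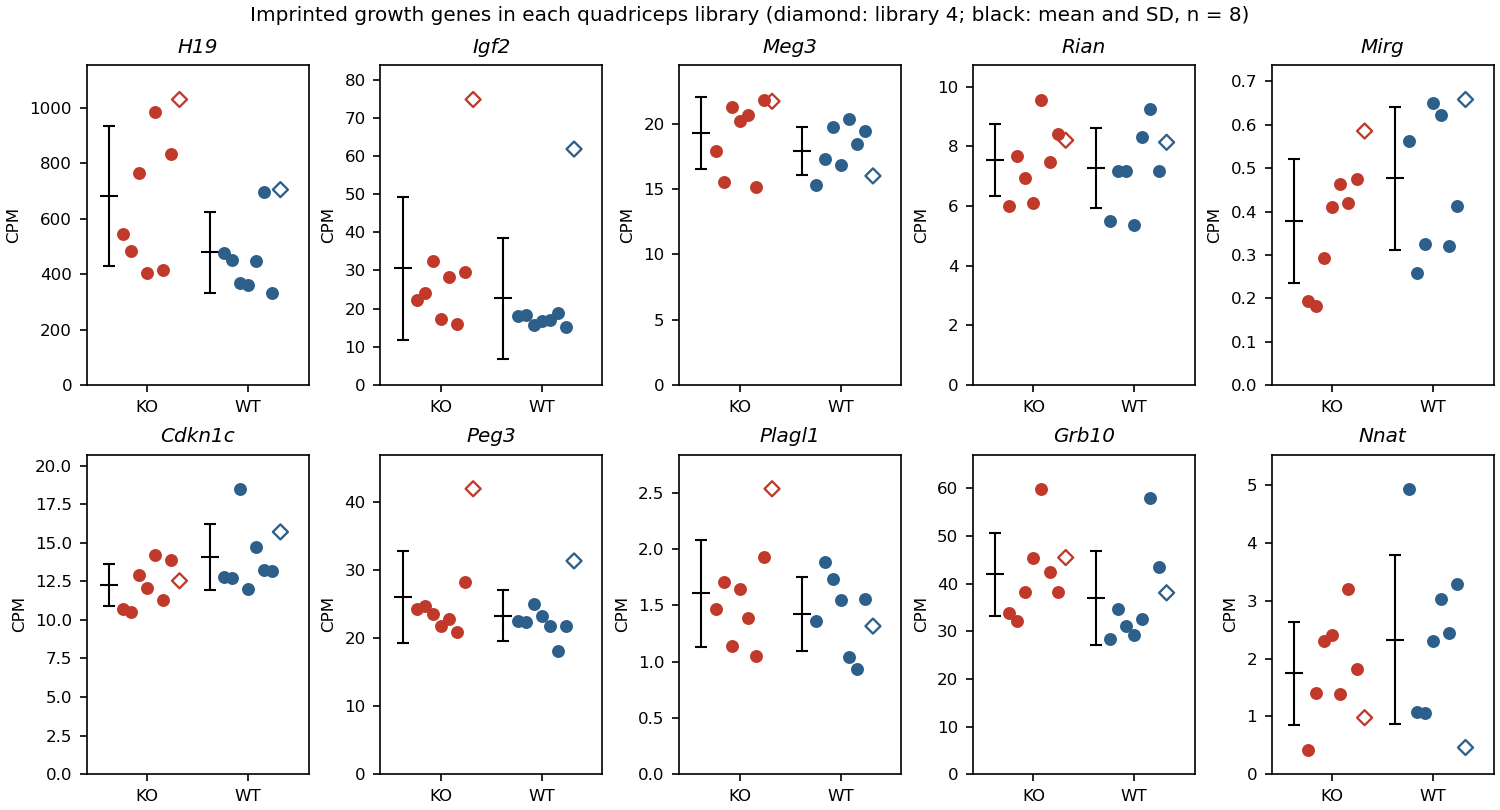
CPM of each of the 10 genes in the KO and WT libraries, 1 point per library, with library 4 as an open diamond and the mean and SD (n = 8) in black; each panel has its own axis from 0. Igf2 shows 1 library far above the rest in each genotype, 74.8 CPM in KO 4 and 61.8 CPM in WT 4, while Meg3 spans 15.1 to 21.8 CPM over both genotypes.

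H19 is a noncoding RNA that restrains growth in the mouse and is among the RNAs abundant in fetal muscle. It reached 403 CPM in the lowest, 655 CPM at the median and 1031 CPM in the highest KO library, against 333, 448 and 706 CPM in WT. The genotypes overlapped: 4 of 8 KO libraries (KO 3, KO 4, KO 6 and KO 8) lay above every WT library and 3 of 8 WT libraries lay below every KO library, but KO 5 and KO 7 were close to the WT median. The mean was 683 ± 253 CPM in KO and 479 ± 146 CPM in WT (SD, n = 8 each), with a log2 fold change of 0.51 (SE 0.22, 95% interval 0.06 to 0.97). It did not pass the threshold (edgeR adjusted p = 0.457; unadjusted p = 0.0299), and an exact two-sided permutation test of log2(CPM + 0.5) gave p = 0.0737. The smallest p that this exact test can give is 0.0001554.

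Igf2 makes the fetal growth factor that acts through the IGF1 receptor and is cleared by IGF2R. It reached 15.8 CPM in the lowest, 26.2 CPM at the median and 74.8 CPM in the highest KO library, against 15.1, 17.5 and 61.8 CPM in WT. The highest were KO 4, 2.30 times the next KO library, and WT 4, 3.28 times the next WT library. With them the log2 fold change was 0.43 (SE 0.34, 95% interval -0.28 to 1.14; edgeR adjusted p = 0.742), and an exact permutation test gave p = 0.238.

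Without KO 4 and WT 4, a choice made after the values were seen, the other 7 KO libraries held 15.8 to 32.5 CPM of Igf2 (24.3 ± 6.28, SD, n = 7) and the other 7 WT libraries 15.1 to 18.9 CPM (17.1 ± 1.39, SD, n = 7). Of those KO libraries, 5 of 7 lay above all 7 WT libraries, and KO 5 and KO 7 lay among them. The log2 fold change was then 0.51 with an SE of 0.14, and it still missed the threshold over all genes (edgeR adjusted p = 0.414, unadjusted p = 0.0020). Leaving out KO 4 alone gave 0.09 and leaving out WT 4 alone gave 0.84, so the size of the Igf2 difference depends on which of these libraries is kept.

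**Figure D2:**
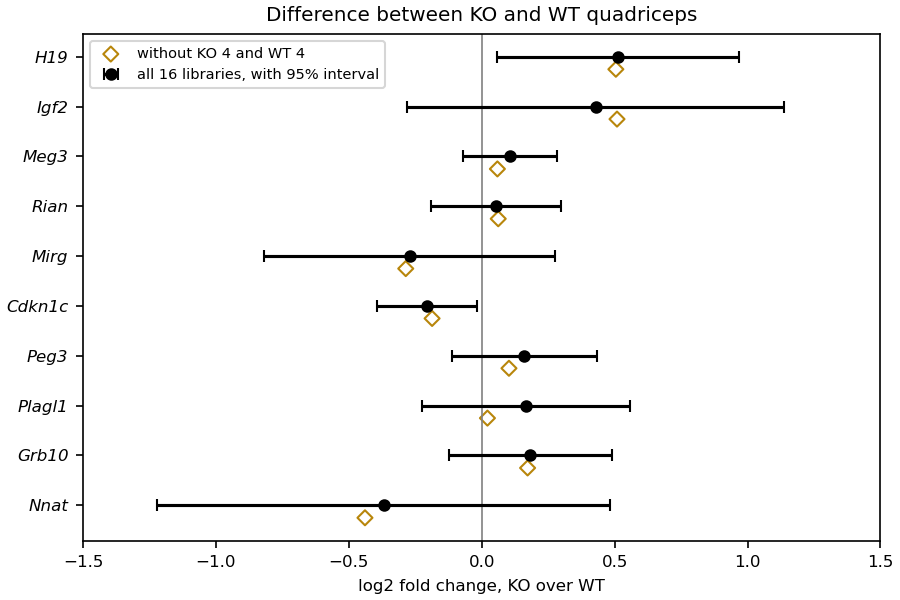
Log2 fold change of each gene, KO over WT, with its 95% interval over all 16 libraries (black) and the value without KO 4 and WT 4 (open diamonds). The intervals of H19 and Cdkn1c leave out 0 before adjustment for the number of genes, and those of Igf2 and Nnat are the widest.

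H19 and Igf2 followed each other from library to library within each genotype. Because Igf2 splits KO 4 and WT 4 from the rest, the relation is given first over the other 14 libraries, each value being log2(CPM + 0.5) less its genotype mean. There Pearson's r was 0.83 (permutation p = 0.00064, adjusted over 45 pairs of members 0.0288) and Spearman's rho was 0.89 (p = 0.00034, adjusted 0.0153). H19 and Igf2 had an r of 0.88 over the 7 remaining KO libraries and of 0.86 over the 7 remaining WT libraries. KO 3, KO 6 and KO 8 were high in both genes and KO 5 and KO 7 low in both. In WT, WT 7 was high in both and WT 8 low in both.

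Without KO 6 and KO 8 as well, the libraries farthest from the median of H19 among the 14, r was 0.79 and rho 0.83 over 12 libraries (permutation p = 0.00026 and 0.00232). Over all 16 libraries r was 0.77 and rho 0.91 (permutation p = 3e-05 and 2e-05, adjusted 0.00135 and 0.0009), and r was 0.75 without KO 4 and KO 6, the 2 farthest of the 16. In KO 4 and WT 4, H19 was the highest of its genotype only by 1.05 and 1.01 times, while Igf2 was far above. The ratio of H19 to Igf2 CPM was accordingly 13.8 in KO 4 and 11.4 in WT 4, below the 20.1 to 37.0 of the other 14 libraries.

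**Figure D3:**
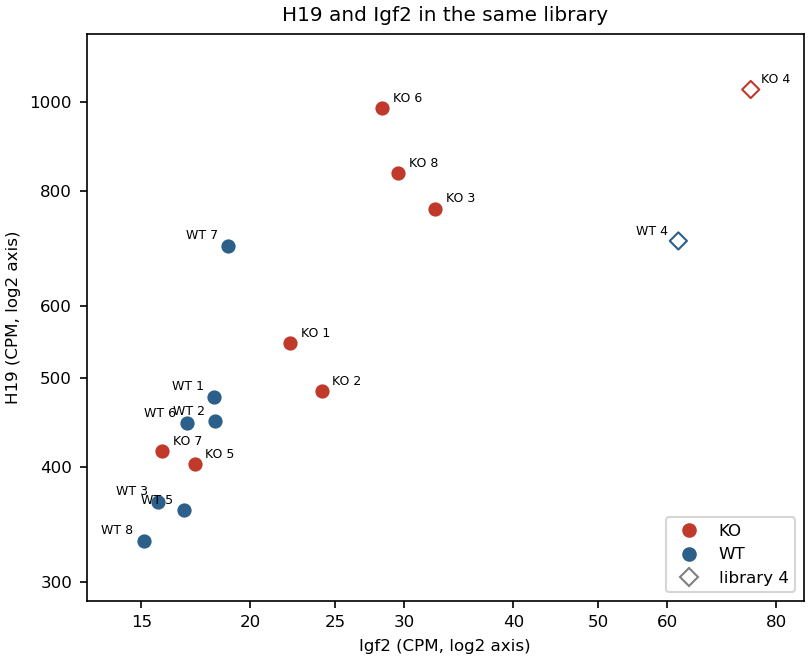
H19 against Igf2, both in CPM on log2 axes, 1 point per library, KO in red and WT in blue, with library 4 as an open diamond. The 14 other libraries lie along a rising band from WT 8 to KO 3, KO 6 and KO 8, and KO 4 and WT 4 lie to its right.

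Several values moved with Igf2 in KO 4 and WT 4. A list of regeneration and embryonic myosin genes holds markers of new or immature fibres and others such as Myod1. Its genes averaged 3.68 on the log2(CPM + 0.5) scale in KO 4 against 2.41 to 3.12 in the other KO libraries. In WT 4 they averaged 4.12 against 2.61 to 2.96 in the other WT libraries. Of its 14 tested genes, 8 were highest in both KO 4 and WT 4, as were 4 of the 10 members (H19, Igf2, Mirg and Peg3) and 2.73% of all tested genes. Myh3, the embryonic myosin heavy chain, had 28.9 CPM in library KO 4 and 100 CPM in library WT 4, against at most 16.3 CPM in the other KO and 12.3 CPM in the other WT libraries. Myl4, an embryonic myosin light chain, had 23.9 CPM in library KO 4 and 24.8 CPM in library WT 4, against at most 11.0 CPM in the other KO and 6.17 CPM in the other WT libraries. Not every gene of the list rose: Myod1 had 16.0 CPM in KO 4, against a KO mean of 20.2 CPM. In WT 4 it had 23.3 CPM, against a WT mean of 24.1 CPM. These genes were picked after their values were seen.

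Macrophage markers averaged 4.64 in KO 4 (3.45 to 4.56 in the other KO libraries) and 4.70 in WT 4 (3.45 to 4.38 in the other WT libraries), and 6 of 10 were highest in both. Their summed level ran from 137 to 320 CPM in KO and from 133 to 346 CPM in WT. Denervation markers averaged 2.73 in KO 4 against 2.44 to 2.70 in the other KO libraries, and 3.43 in WT 4 against 2.50 to 2.74 in the other WT libraries. Of these 12 genes, 3 were highest in both KO 4 and WT 4. The denervation list overlaps with the regeneration list, so the lists are not separate observations. The acetylcholine receptor subunit gene Chrng, on both the regeneration and the denervation list, was at 0.39 CPM in KO 4 but at 4.87 CPM in WT 4, so the pair was not alike in it. Over the other 14 libraries Igf2 had an r of 0.71 and a rho of 0.59 with the regeneration list (permutation p = 0.00963 and 0.0349), which did not pass the adjustment over 170 relations of members to lists (adjusted p = 0.284 and 0.408). That list was not alone: adipocyte markers gave an r of 0.73 and a rho of 0.62 there (permutation p = 0.00215 and 0.0203, adjusted 0.284 and 0.380), fibro-adipogenic markers an r of 0.62 and a rho of 0.56 (permutation p = 0.0435 and 0.0685, adjusted 0.389 and 0.529), and macrophage markers an r of 0.59 and a rho of 0.44 (permutation p = 0.0296 and 0.131, adjusted 0.335 and 0.565). The part of these markers in the Igf2 values was not tested.

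**Figure D4:**
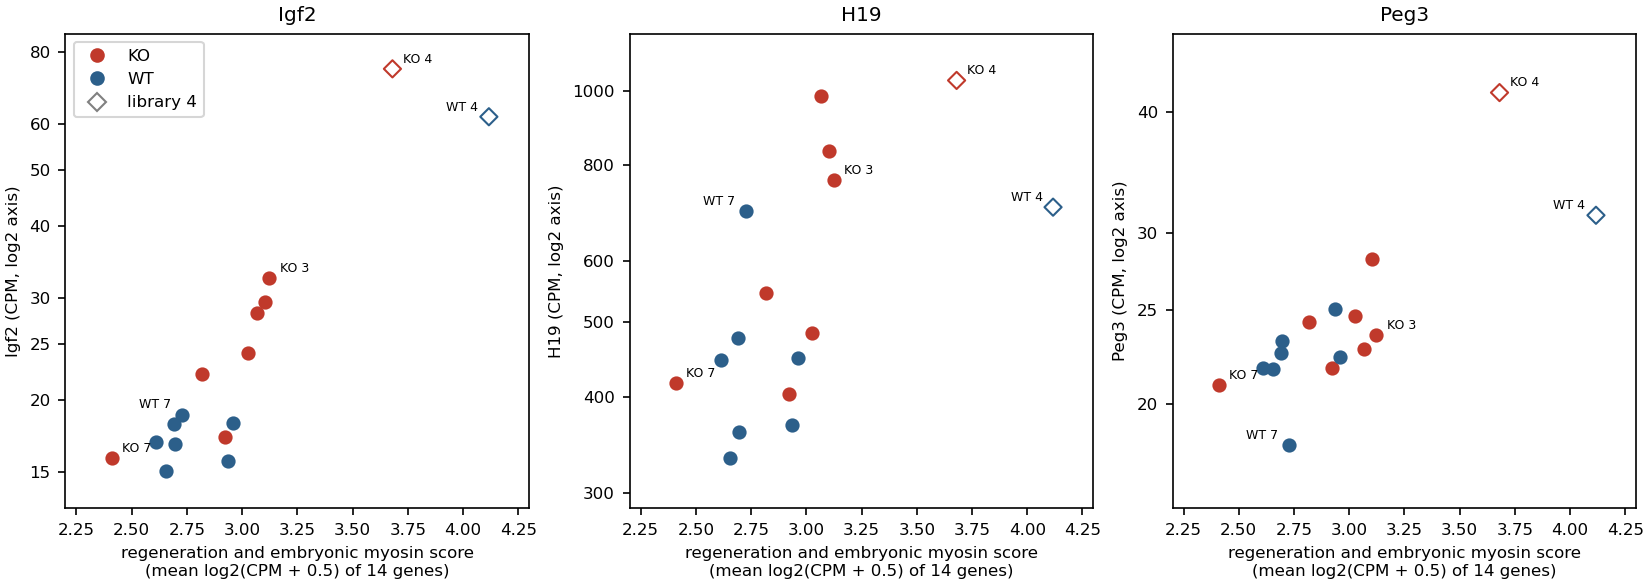
Igf2, H19 and Peg3 in CPM (log2 axis) against the mean log2(CPM + 0.5) of 14 regeneration and embryonic myosin genes, 1 point per library, KO in red, WT in blue and library 4 as an open diamond. KO 4 and WT 4 have the highest scores, 3.68 and 4.12, and the highest Igf2, and WT 7 has a high H19 at a low score.

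None of the 3 noncoding RNAs of the Dlk1-Dio3 cluster passed the threshold, and Mirg was measured with less precision than Meg3 and Rian. Meg3, which has been studied as a growth suppressor, held 15.1 CPM in the lowest, 20.4 CPM at the median and 21.8 CPM in the highest KO library, against 15.3, 17.9 and 20.3 CPM in WT. KO 3, KO 4, KO 6 and KO 8 lay above every WT library, and KO 7 lay below every WT library. The means were 19.3 ± 2.74 CPM in KO and 17.9 ± 1.84 CPM in WT (SD, n = 8 each), with a log2 fold change of 0.11 (SE 0.08, 95% interval -0.07 to 0.28; edgeR adjusted p = 0.746).

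Rian, a host of small nucleolar RNAs and microRNAs, held 6.01, 7.57 and 9.57 CPM in the lowest, median and highest KO library, against 5.36, 7.18 and 9.26 CPM in WT. The genotypes overlapped almost throughout, and the log2 fold change was 0.05 (SE 0.12, 95% interval -0.19 to 0.30; edgeR adjusted p = 0.928); it was -0.00 without KO 6. Mirg, the host of 26 of the 39 microRNAs placed inside the members, held 0.183, 0.416 and 0.586 CPM in the lowest, median and highest KO library, against 0.257, 0.487 and 0.658 CPM in WT. These are 3 to 20 estimated counts per library. Its log2 fold change of -0.27 (SE 0.26, 95% interval -0.82 to 0.28; edgeR adjusted p = 0.793) had an interval that reached past 1.5-fold lower. KO 4 alone of the KO libraries lay above the WT mean, and KO 1 and KO 2 lay below every WT library.

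Meg3, Rian and Mirg lie in one direction within the cluster, and whether their levels follow each other between libraries was asked for each pair. For Mirg, at 3 to 20 counts per library, a low r does not show that it varied apart from the others. Over 16 libraries r was 0.34 for Meg3 and Rian, 0.17 for Meg3 and Mirg and 0.07 for Rian and Mirg, with rho of 0.38, 0.27 and 0.17. No pair passed the adjustment over 45 pairs (permutation p = 0.195, 0.538 and 0.810 for r, adjusted 0.488, 0.732 and 0.889, and p = 0.152, 0.317 and 0.537 for rho, adjusted 0.400, 0.528 and 0.756). Without the 2 libraries farthest from the median of the first gene, r was 0.28, 0.36 and 0.45. Ratios within a library were taken after adding 0.5 CPM to each gene. Mirg itself held only 0.183 to 0.658 CPM, so the ratios to Mirg are lower than those of the CPM alone. So taken, the log2 ratio of Meg3 to Mirg averaged 4.50 ± 0.22 over the 8 KO libraries and 4.25 ± 0.33 over the 8 WT libraries (SD). The difference was 0.25 (exact permutation p = 0.0973, adjusted over 3 ratios 0.292). The differences were 0.21 for Rian to Mirg (exact permutation p = 0.226, adjusted 0.339) and 0.04 for Meg3 to Rian (exact permutation p = 0.752), and that of Meg3 to Rian changed sign without KO 5, WT 4 or WT 7. With 0.1 CPM added in place of 0.5, the differences were 0.38 for Meg3 to Mirg, 0.34 for Rian to Mirg and 0.04 for Meg3 to Rian. Dlk1, the protein-coding neighbour read from the paternal copy, averaged 0.852 ± 0.227 CPM in KO and 0.774 ± 0.188 CPM in WT (SD, n = 8 each), with a log2 fold change of 0.11 (SE 0.18, edgeR adjusted p = 0.898).

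Cdkn1c and Grb10 restrain growth from the maternal copy. Cdkn1c (chromosome 7, 143458339 to 143461050, minus strand) makes the cyclin-dependent kinase inhibitor p57. It held 10.5, 12.3 and 14.2 CPM in the lowest, median and highest KO library, against 12.0, 13.2 and 18.5 CPM in WT. KO 1, KO 2 and KO 7 lay below every WT library, and WT 3, WT 4 and WT 6 lay above every KO library, with the other 10 libraries mixed. The means were 12.3 ± 1.39 CPM in KO and 14.1 ± 2.14 CPM in WT (SD, n = 8 each), with a log2 fold change of -0.21 (SE 0.09, 95% interval -0.39 to -0.02).

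For Cdkn1c the exact permutation test gave p = 0.0494 and edgeR an unadjusted p of 0.0321, and the adjusted p of 0.463 missed the threshold. Leaving out 1 library at a time gave log2 fold changes between -0.24 and -0.13. The unadjusted edgeR p was 0.0759 without KO 4 and WT 4 and 0.0795 without KO 1, 3, 5 and 8. With the mean of RNAs without a poly(A) tail as a covariate it was 0.108. Against log2 depth Cdkn1c had an r of 0.63 and a rho of 0.59 over 16 libraries (permutation p = 0.0152 and 0.0225, adjusted over 10 members 0.152 and 0.225), and r was 0.23 without KO 2 and WT 3, the 2 farthest in depth. The part of depth in its difference was not tested. An antisense gene, Gm44732, shares 625 exon bases with Cdkn1c and is no row of the table. The labels call the libraries ssRNA-seq, but no source used here states whether strand was used in counting. Reads of the pair therefore cannot be told apart. Cdkn1c also followed Meg3 over the 14 libraries without KO 4 and WT 4, with r of 0.71 (permutation p = 0.00613, adjusted 0.0920) and rho of 0.83 (p = 0.0008, adjusted 0.018), so that only rho passed. Over all 16 libraries neither did, with r of 0.59 and rho of 0.64 (permutation p = 0.0171 and 0.0111, adjusted 0.128 and 0.166), and r was 0.57 without KO 7 and WT 1, the 2 farthest.

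Grb10 (chromosome 11, 11930508 to 12038683, minus strand) makes an adaptor that dampens insulin and IGF1 receptor signalling. It held 32.1, 40.4 and 59.9 CPM in the lowest, median and highest KO library, against 28.3, 33.6 and 58.1 CPM in WT. KO 6 and WT 7 were the high libraries, and the genotypes otherwise overlapped broadly. The means were 42.0 ± 8.79 CPM in KO and 37.0 ± 9.89 CPM in WT (SD, n = 8 each), with a log2 fold change of 0.18 (SE 0.15, 95% interval -0.12 to 0.49; edgeR adjusted p = 0.746). It was 0.09 without KO 6 and 0.31 without WT 7.

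Peg3 and Plagl1 make zinc finger proteins read from the paternal copy, and Plagl1 is known in the mouse to regulate other imprinted genes. Peg3 (chromosome 7, 6703892 to 6730431, minus strand) held 20.9, 23.9 and 41.9 CPM in the lowest, median and highest KO library, against 18.1, 22.4 and 31.3 CPM in WT. KO 4 and WT 4 were again the highest of their genotypes, and KO 4 held 1.49 times the next KO library. The log2 fold change was 0.16 (SE 0.13, 95% interval -0.11 to 0.43; edgeR adjusted p = 0.752), and 0.10 (SE 0.07) without KO 4 and WT 4. Leaving out KO 4 alone gave 0.03 and leaving out WT 4 alone gave 0.24.

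Plagl1 (chromosome 10, 13060504 to 13131694, plus strand) held 1.05, 1.56 and 2.54 CPM in the lowest, median and highest KO library, against 0.937, 1.46 and 1.89 CPM in WT. KO 4 was the highest KO library, but WT 4 was only the sixth of the 8 WT libraries. Its log2 fold change was 0.17 (SE 0.19, 95% interval -0.23 to 0.56; edgeR adjusted p = 0.831), 0.04 without KO 4 and 0.02 without KO 4 and WT 4. Peg3 and Plagl1 had an r of 0.68 and a rho of 0.71 over 16 libraries (permutation p = 0.00663 and 0.00297), which missed the threshold after adjustment (0.0994 and 0.0668). Without KO 4 and WT 4, which are also the 2 farthest, r was 0.73 and rho 0.66 (permutation p = 0.00362 and 0.0162, adjusted 0.0815 and 0.182).

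Nnat (chromosome 2, 157560078 to 157562522, plus strand), the gene of the small membrane protein neuronatin, lies within Blcap on the other strand and shares 0 exon bases with it. It held 0.426, 1.61 and 3.21 CPM in the lowest, median and highest KO library, against 0.461, 2.37 and 4.94 CPM in WT. The highest library was 11.6 times the lowest, the widest span of the 10 members, and the genotypes overlapped. KO 4 and WT 4 were near or at the bottom, as the seventh of 8 KO and the last of 8 WT libraries. The log2 fold change was -0.37 (SE 0.41, 95% interval -1.22 to 0.48; edgeR adjusted p = 0.827). It was -0.12 without WT 1, the highest library, -0.58 without KO 7, the highest KO library, and -0.13 by limma-voom.

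Across all 45 pairs of members, 35 correlations were positive over 16 libraries, 8 had an unadjusted permutation p under 0.05 for r, and 2 passed the adjustment, those of H19 with Igf2 and of Igf2 with Peg3. The pair of Igf2 and Peg3 rests on KO 4 and WT 4: over all 16 libraries its r was 0.84 and its rho 0.43 (permutation p = 0.00222 and 0.114, adjusted 0.04995 and 0.399), and over the other 14 they were 0.33 and 0.17 (permutation p = 0.288 and 0.577, adjusted 0.648 and 0.888). Over those 14 libraries 1 pair passed for r, that of H19 and Igf2. Meg3 and Peg3, whose promoters share 8 letters, had an r of 0.19 and a rho of 0.16 over 16 libraries (permutation p = 0.553 and 0.575, adjusted 0.732 and 0.761), and r was 0.04 without KO 7 and WT 1, the 2 farthest. Of 170 relations of members to gene lists, 6 passed for r over 16 libraries and 0 without KO 4 and WT 4.

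**Figure D5:**
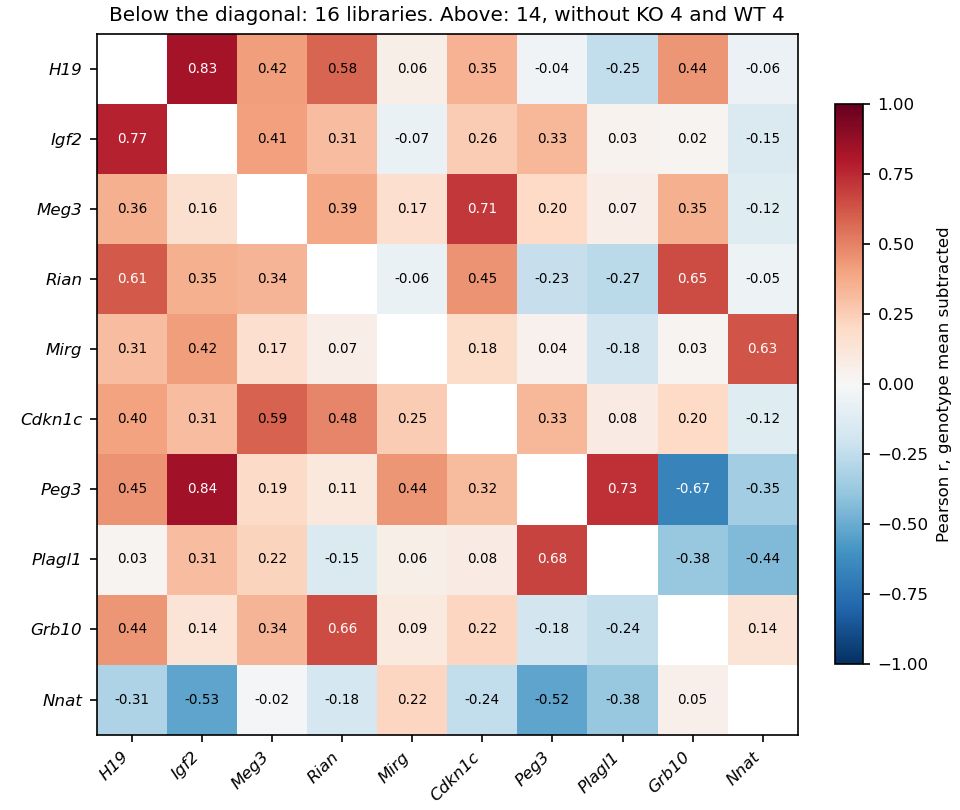
Pearson's r between each pair of the 10 genes, from log2(CPM + 0.5) less the genotype mean, over 16 libraries below the diagonal and over 14 without KO 4 and WT 4 above it. H19 and Igf2 stay related on both sides (0.77 and 0.83), and Igf2 and Peg3 do not (0.84 and 0.33).

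The 2 nearest tested genes on each side of each member were compared with it. Of these 40 neighbours 8 are themselves members, such as Igf2 beside H19, and are among the pairs above. Over the other 32 relations 0 passed the adjustment, with or without KO 4 and WT 4. Nctc1, a noncoding RNA of the muscle enhancer region near H19, averaged a log2 fold change of 0.17 (SE 0.08, edgeR adjusted p = 0.525), and its r with H19 was -0.41 and rho -0.34 (permutation p = 0.116 and 0.188, adjusted over 32 relations 0.655 and 0.548), with r of -0.52 without KO 4 and KO 6, the 2 farthest.

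Kcnq1ot1, the long noncoding RNA that silences the Cdkn1c cluster on the paternal copy, averaged 10.0 ± 4.92 CPM in KO and 5.83 ± 1.31 CPM in WT (SD, n = 8 each), with a log2 fold change of 0.79 (SE 0.26, edgeR adjusted p = 0.307). KO 1, KO 3, KO 5 and KO 8 held 14.0 to 15.6 CPM, and the other 4 KO libraries held no more than 6.72 CPM, within the WT range of 4.16 to 8.38 CPM. The same 4 KO libraries had the highest mean levels of RNAs without a poly(A) tail, 3.71 to 4.04 on the log2(CPM + 0.5) scale against 2.36 to 2.97 in the other KO and 2.41 to 3.54 in the WT libraries. Kcnq1ot1 followed that list with r of 0.92 and rho of 0.89 over 16 libraries (permutation p = 0.00013 and 0.00075, 1 relation computed, chosen after the values were seen), and r was 0.89 without KO 1 and KO 5, the 2 farthest. With that list as a covariate its log2 fold change was 0.18 (SE 0.13, edgeR adjusted p = 0.636), and without those 4 libraries it was -0.08. Those 4 libraries were the highest in Kcnq1ot1, so leaving them out had to lower the difference. They were also the highest in that list and all are KO, so list and genotype cannot be told apart in them. The part of RNAs without a poly(A) tail in the Kcnq1ot1 difference was not tested.

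Among 54 other imprinted genes, 35 were tested and 0 were called. At an unadjusted p under 0.05, 2 were higher (Kcnq1ot1 and Ube3a) and 3 lower (Slc38a4, Nap1l4 and Blcap), 22 of 35 had a log2 fold change above 0, and the median was 0.02. Over all tested genes the shares were 4.02% higher, 5.55% lower and 51.8% above 0. Slc38a4, an amino acid transporter gene, averaged 94.6 ± 19.8 CPM in KO and 130 ± 25.9 CPM in WT (SD, n = 8 each), with a log2 fold change of -0.46 (SE 0.14, edgeR adjusted p = 0.272). Gnas, which makes the stimulatory G protein alpha subunit and was the most abundant, averaged 872 ± 40.7 CPM in KO and 865 ± 46.6 CPM in WT (SD, n = 8 each), a log2 fold change of 0.01.

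Of 26 genes of IGF signalling, 23 were tested and 0 were called, with 3 lower and 0 higher at an unadjusted p under 0.05 (5.55% and 4.02% of all tested genes) and a median log2 fold change of -0.04. The lower ones were Htra1, a secreted protease (-0.42, SE 0.11, edgeR adjusted p = 0.219), the kinase gene Akt2 (-0.15, SE 0.06, edgeR adjusted p = 0.382) and the RNA-binding protein gene Igf2bp3 (-0.56, SE 0.24, edgeR adjusted p = 0.463). Igf1r, Igf2r and Igf1 are named here for their roles, after their values were seen. The partners of IGF2 had log2 fold changes of 0.10 for the signalling receptor gene Igf1r (SE 0.12, edgeR adjusted p = 0.835) and -0.02 for the clearance receptor gene Igf2r (SE 0.03, edgeR adjusted p = 0.934). Igf1, the adult ligand, averaged 18.8 ± 7.11 CPM in KO and 23.2 ± 6.78 CPM in WT (SD, n = 8 each; log2 fold change -0.32, edgeR adjusted p = 0.678). Of 18 genes that maintain imprints, such as Dnmt3a and Ehmt2, 15 were tested, 0 were called, 0 had an unadjusted p under 0.05 and the median was 0.05.

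Genes whose library-to-library pattern was most like that of H19 were, among 11488 genes at a mean of 1 CPM or more, Capn6 (r = 0.91 over 16 libraries), Slc26a2 (0.87), Tmem132a (0.86), Lamb1 (0.85) and Sla (0.84), each less its genotype mean. They were picked as the highest of 11488 and carry no test. Those most like Igf2 were Ppfia4 (0.95), Myl4 (0.94) and Tnnt2 (0.93) over 16 libraries. Over the 14 without KO 4 and WT 4 they were Lamb1 (0.90), Capn6 (0.89) and Irf4 (0.87). Over those 14, Capn6 (0.90) was also the gene most like H19, while Lamb1 was not among the 5 most like H19. The values for the other members are over 16 libraries. For Grb10 the genes most alike were Alg13 (0.93), Plcb1 (0.89) and Abcc8 (0.89), and for Rian Dock1 (0.88), Lrrc57 (0.84) and Rrp9 (0.84). For Peg3 they were Fhl3 (0.86), Hpgds (0.86) and Maged2 (0.84). For Meg3 they were Il16 (0.86), Slc50a1 (0.80) and Tamm41 (0.77), for Cdkn1c Gak (0.84), Cyth3 (0.83) and Ptpre (0.83), and for Mirg Edem2 (0.80), Cul4b (0.80) and Erlec1 (0.79). For Plagl1 they were Cpa3 (0.79), Trrap (0.78) and Spg21 (0.77), and for Nnat Mmadhc (0.81), Fam50a (0.79) and Toe1 (0.78). Without KO 4 and WT 4 the genes most like Peg3 were instead Ncs1 (0.92), Zfp821 (0.92) and Ebf1 (0.89). Those most like Grb10 were then Kazald1 (0.96), Cntnap2 (0.94) and Creg1 (0.94). The genes given for Mirg and Nnat were likewise all replaced over those 14 libraries.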

How the data were processed

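Polyadenylated RNA of mouse quadriceps was measured in 8 KO and 8 WT libraries, grouped by the genotype in the labels. The authors deposited estimated counts per gene, not scaled to depth; the submitters' processing notes name GRCm38, Salmon, STAR and bcl2fastq 4.0.3. Not given in the sources used here are the other tools' versions, the annotation and whether counting used strand. Estimated counts split reads between overlapping or similar genes by a model, so such genes are less certain: in GENCODE vM21, Igf2 shares 3596 exon bases with Gm49394, which is no row of the table, and 98 with its antisense Igf2os. That annotation was used for coordinates and exon lengths only, and 99.5% of tested genes matched it.

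Counts (11.1% not whole, within 1e-09) were rounded. KO and WT were compared with edgeR 4.0.16 (R 4.3.3), its quasi-likelihood test, TMM scaling, the default filter and no covariate, with Benjamini-Hochberg adjustment over 13792 genes at 0.05. The genes left out held 0.0705% of counts. CPM were computed from these counts, and a pseudocount of 0.5 CPM was used on the log2 scale. Exact tests ran over all 12870 assignments, and relations over 1e+05 permutations within genotype. The p-values for relations to gene lists were added after the data were seen. Alternatives included DESeq2 1.42.0, limma-voom (limma 3.58.1), other scalings, filters and covariates, and leaving out libraries. Python 3.11.15 with scipy 1.17.1 was used. The gene test was tested on simulated data.

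The members and gene lists were chosen with earlier results of these data known. Genes named are the members, of each list the 2 highest in CPM (called ones where there are any), the 6 of smallest p among other imprinted and IGF genes, neighbours and nearest patterns; not every gene so taken is printed. Myh3, Myl4, Myod1, Chrng, Igf1, Igf1r and Igf2r fall outside this rule and were chosen after their values were seen. Replicate pairs differed beyond sampling noise (smallest chi-square per degree of freedom 8.09 in KO and 9.42 in WT), so all 16 libraries were kept. The number of columns of no sample was 0. Depth was 16065394 to 51881258 counts per library, and Mirg rested on 3 to 20 counts.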

Additional observations from a re-analysis of the deposited data

Results flagged for a closer look

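Within 8 KO or 8 WT libraries, a library was picked out where its gap to the nearest other library was a large share of the group's whole range (Dixon's criterion at 95%). For independent groups with normal values, chance alone picks out about 1 in 20 groups. Here 3 of 20 groups were picked out. They cannot be set against that rate, because the groups share the same libraries and CPM need not be normal. Igf2 in KO was picked out for KO 4, the highest library, at 74.8 CPM against 15.8 to 32.5 CPM in the other 7, with a gap of 0.539 of the range. Igf2 in WT was picked out for WT 4, the highest library, at 61.8 CPM against 15.1 to 18.9 CPM in the other 7, with a gap of 0.844 of the range. Peg3 in KO was picked out for KO 4, at 41.9 CPM against 20.9 to 28.2 CPM in the other 7, with a gap of 0.572 of the range. Peg3 in WT 4, at 31.3 CPM was the highest WT library without meeting the criterion.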

How the results depend on the processing

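The number of members called stayed at 0 under all 28 alternatives. Of 280 member values under them, 279 kept the direction of the log2 fold change; Rian alone reversed, at -0.0034 without KO 6, and leaving out 1 library it ran up to 0.1141. H19 ran from 0.40 to 0.67 (adjusted p from 0.286 to 0.683), and Igf2 from 0.09 to 0.84, its ends being without KO 4 and without WT 4. Cdkn1c ran from -0.24 to -0.13, and the median of the members from 0.0364 (without KO 4) to 0.1951 (without KO 1, 3, 5 and 8). The number of all tested genes called, 6, was 2 under RLE size factors, under library totals alone, with the carry-over covariate (the mean of RNAs without a poly(A) tail) and without KO 1, 3, 5 and 8; it was 3 with no low-count filter and without KO 4 and WT 4. DESeq2 called 96 (15 higher, 81 lower), and leaving out 1 library gave 2 to 8. The number of related pairs, 2, was 1 without the 2 farthest libraries and 1 without KO 4 and WT 4. The difference in the ratio of Meg3 to Rian reversed to -0.0112 without KO 5, -0.0078 without WT 4 and -0.0045 without WT 7, and ran up to 0.0854 leaving out 1 library at a time. The cause of these shifts was not tested. Libraries share replicate numbers, but same-numbered KO and WT libraries deviated together only weakly (correlations of -0.098 to 0.237, with 3 of 8 over 0.1 and 2 of 8 KO libraries closest to their own number), so the numbers were not taken as pairs. With a replicate block 2 genes and 0 members were called, and 4 members instead of 2 had an unadjusted p under 0.05: H19, Cdkn1c, Igf2 (0.0059, against 0.221 with no block) and Peg3 (0.0403). Limits: Mirg, Plagl1 and Nnat rest on few counts, and intervals cover only the spread between these samples.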

Other observations

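Of the 10 members, Nnat, H19 and Grb10 had a wider library-to-library spread than at least 95% of genes within 2-fold of their level, in KO and in WT, with or without KO 4 and WT 4. The coefficient of variation of Nnat was 50.7% in KO and 62.9% in WT, against medians of 18.9% and 18.9% over 2754 such genes. That of H19 was 37.1% in KO and 30.4% in WT, against 7.67% and 7.75% over 215 genes, and that of Grb10 20.9% in KO and 26.8% in WT, against 7.02% and 7.26% over 3299 genes. That of Igf2 was 61.4% in KO and 69.8% in WT, against 7.51% and 7.69% over 3959 genes. Without KO 4 and WT 4 it was 25.9% in KO and 8.14% in WT, against 7.27% and 7.55%. The KO value was then still above that of 97.3% of such genes, and the WT value above that of 56.8%. Peg3 had 26.1% in KO and 16.2% in WT, but 9.97% and 9.42% without KO 4 and WT 4, against 7.38% and 7.67%. Meg3 varied by 14.2% in KO and 10.3% in WT, against 8.15% and 8.26% over 4399 genes.

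Cell cycle genes beside Cdkn1c showed 0 called of 14 tested, with 2 lower and 0 higher at an unadjusted p under 0.05 (5.55% and 4.02% of all tested genes). Cdkn1b, the gene of the related inhibitor p27, averaged 30.2 ± 4.32 CPM in KO and 29.3 ± 4.03 CPM in WT (SD, n = 8 each; log2 fold change 0.04, SE 0.09, edgeR adjusted p = 0.923). Genes of hypertrophy and growth control showed 0 called of 10 tested (smallest edgeR adjusted p = 0.120) and a median log2 fold change of 0.03. At an unadjusted p under 0.05, 1 was higher and 2 were lower (4.02% and 5.55% of all tested genes). Mtor, the gene of the growth-promoting kinase, had a log2 fold change of 0.03 (SE 0.05, edgeR adjusted p = 0.889). The regeneration and embryonic myosin list that moved with Igf2 in KO 4 and WT 4 had 0 of 14 genes called between KO and WT, 0 at an unadjusted p under 0.05 and a median log2 fold change of -0.07. Macrophage markers had 0 of 10 called, 0 at an unadjusted p under 0.05 and a median of 0.06. Denervation markers, a list that overlaps with the regeneration list, had 0 of 12 called and a median of -0.14. At an unadjusted p under 0.05, 2 of them were lower (5.55% of all tested genes). The log2 fold change was above 0 for 10 of 10 macrophage, 3 of 12 denervation and 6 of 14 regeneration genes. Over all tested genes that share was 51.8%, and these counts carry no test.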
